A study of Mus musculus with 2 samples.

Results

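The 10 genes described here are immediate early genes measured in mouse liver: the transcription factor genes Nr4a1, Egr1, Egr2, Fos, Fosb, Jun, Junb and Atf3, with Ier2 and Ier3. They were taken from the array by gene name, as every non-control probe named with one of these symbols or a synonym of it, and the probes were selected without a threshold on any value. Each gene had 1 probe, so they are 10 of 39429 probes and 10 of 22803 named genes. RNA came from livers of C57BL/6 mice in 4 groups: AID transgenic mice given thioacetamide in the drinking water over 6 months, untreated AID transgenic mice, wild-type mice given the same treatment, and untreated wild-type mice. AID stands for activation-induced cytidine deaminase, which turns cytosine into uracil in the antibody genes of B cells, and thioacetamide is a liver toxin that causes fibrosis in rodents. The sources used here do not give the promoter and cell type of the AID transgene, the age and sex of the mice, the time of day of dissection, or whether a channel held 1 animal or a pool. Each genotype had 1 array with treated RNA in Cy5 and untreated RNA in Cy3 and no dye swap, so dye and treatment cannot be told apart, no difference below has a replicate check, and no p-value is given.

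Immediate early genes are switched on within minutes of a stimulus by factors that are already in the cell, without new protein synthesis. Signals from growth factors, cytokines or stress reach them through MAP kinases, the serum response factor SRF and its ternary complex partners, and the cAMP response element binding protein CREB. Their mRNAs are short-lived, and their products then drive later genes, so a level in tissue is a view of 1 moment. In the liver, Fos, Jun, Egr1 and Atf3 are known for a fast rise after partial hepatectomy or toxic injury.

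The stretches just upstream of their start sites hold elements through which such signals are read. RefSeq promoter sequences of the assembly GRCm38.p6 were at hand for 8 of the 10 genes. The 250 bases upstream of the start site are printed for Nr4a1, on which the results turn, and for 3 other genes with a match to the cAMP response element half-site, so that their number and place can be seen side by side. They lie at chr15:101266596-101266845 on the plus strand (Nr4a1), chr12:85473640-85473889 on the plus strand (Fos), chr7:19310046-19310295 on the minus strand (Fosb) and chr1:191183334-191183583 on the minus strand (Atf3), and each is written 5′ to 3′ in its gene's direction. Capitals mark matches on either strand to TGACG or its longer form TGCGTCA, and to the EGR sequence GCGNGGGCG.
Nr4a1: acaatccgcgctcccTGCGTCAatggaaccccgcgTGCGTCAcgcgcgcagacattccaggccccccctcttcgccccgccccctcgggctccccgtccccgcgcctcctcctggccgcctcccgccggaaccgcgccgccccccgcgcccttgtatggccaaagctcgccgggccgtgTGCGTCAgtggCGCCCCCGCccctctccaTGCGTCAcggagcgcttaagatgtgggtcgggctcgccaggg
Fos: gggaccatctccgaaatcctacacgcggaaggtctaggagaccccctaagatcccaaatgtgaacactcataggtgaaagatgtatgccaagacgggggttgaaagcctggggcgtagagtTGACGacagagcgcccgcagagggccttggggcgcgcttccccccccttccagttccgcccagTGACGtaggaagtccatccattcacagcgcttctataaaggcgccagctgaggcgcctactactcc
Fosb: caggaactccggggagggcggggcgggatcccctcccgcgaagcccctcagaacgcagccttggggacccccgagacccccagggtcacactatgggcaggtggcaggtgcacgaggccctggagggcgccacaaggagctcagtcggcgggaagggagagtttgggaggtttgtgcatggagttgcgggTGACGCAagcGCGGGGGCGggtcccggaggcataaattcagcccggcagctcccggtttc
Atf3: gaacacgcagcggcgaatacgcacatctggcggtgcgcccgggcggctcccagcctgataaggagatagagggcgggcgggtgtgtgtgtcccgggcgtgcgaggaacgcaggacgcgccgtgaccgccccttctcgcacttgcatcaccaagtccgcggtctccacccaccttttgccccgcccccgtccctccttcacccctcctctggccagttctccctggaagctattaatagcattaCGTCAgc
The half-site TGACG is the core of the cAMP response element, and TGCGTCA is a variant of the element whose reverse complement contains TGACG, so these matches overlap. The Nr4a1 stretch held 4 matches to TGCGTCA, which began 235, 215, 71 and 42 bases upstream of the start site. Of 32851 mouse promoter stretches of the same length, 1.75% held a match to TGCGTCA, and 1 held 4 or more, which is that of Nr4a1. TGACG was found in 17.8% of the stretches. Fos held 2 matches to it, 129 and 66 bases upstream, Fosb 1 at 60, Atf3 1 at 7 and Junb 1 at 106. Egr2 has 5 listed start sites, and 3 of their stretches, which overlap, held 2 matches each, while Jun and Ier3 held no match to any motif searched. GCGNGGGCG, the letters bound by EGR proteins, was found in 4.7% of all stretches and had 1 match each in Nr4a1 and Fosb. A CArG box, the binding sequence of SRF, was found in 1.47% of all stretches and, among the 8 genes, only in Egr2. The AP-1 sequence TGANTCA (6.75% of all stretches) and AAAGGTCA, the sequence bound by NR4A monomers (1.34%), had no match in these genes. A match describes letters in this window and was not tied to binding or to the values below. Only these letters within 250 bases were searched. A lack of a match thus does not mean that a gene lacks such an element in another form or further upstream.

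Some facts of the arrays bear on every value. Of 43020 non-control spots, 68.76% in Cy5 and 53.9% in Cy3 were well above background on the AID transgenic array, and 68.43% and 56% on the wild-type array. The lowest log2 level so called was 5.85 in Cy5 on both arrays. In Cy3 it was 6.31 on the AID transgenic and 6.27 on the wild-type array. The call thus comes at lower levels in Cy5, which held the treated RNA. Hepatocyte markers, among them albumin (Alb) and transthyretin (Ttr), were well above background in all 4 channels, 6 of 6. They were not level: 2 of them were past 2-fold lower in treated liver on both arrays. Apoa1 had log2 ratios of treated over untreated of -1.84 in AID transgenic and -1.79 in wild-type mice, and Tat -1.27 and -1.15. Alb ran the other way, at 0.17 and 0.60. Their summed intensity was 501301 in treated and 582253 in untreated AID transgenic liver, and 468498 and 585327 in wild-type liver. The treated and untreated wild-type livers stood apart in sex-linked transcripts. Xist, the RNA of the inactive X chromosome, was at least 6.18-fold higher in treated than in untreated wild-type liver, and the Y-linked genes Ddx3y and Eif2s3y were lower there by at least 17.6-fold and at least 32.1-fold. A fold is written as at least so much where the dimmer channel was not well above background and so gives only a bound. Such a bound holds for the processing used here. Ddx3y had a log2 ratio of -0.11 ± 0.20 between the AID transgenic livers, which were also level in Eif2s3y at -0.05. The treated wild-type liver therefore carries a difference tied to sex into each comparison it enters, and its part in the values of the immediate early genes was not tested.

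In thioacetamide-treated AID transgenic liver, Nr4a1 and Egr1 were more than 2-fold above the untreated liver of that genotype. In treated wild-type liver this held for Egr1 alone, and Nr4a1 was nearly level. Jun and Atf3 were higher on both arrays but short of 2-fold, and Fosb, Junb and Ier2 differed by no more than their technical error. Genes were counted at a log2 value of 1 or more in either direction, a 2-fold difference, provided that the probe was well above background in at least 1 channel that entered. By this count 2 of the 10 genes were higher and 0 lower in treated AID transgenic liver, where 1.22% of 16691 measured genes were higher, 0.947% lower and 2.16% either. In wild-type liver 1 was higher and 0 lower, where 1.86% of 16662 genes were higher, 1.64% lower and 3.5% either. The median log2 ratio of the 10 genes was 0.32 in AID transgenic and 0.36 in wild-type mice, beside 0.03 for all genes on either array. Over the genes well above background in both channels it was 0.74 in AID transgenic mice (6 genes) and 0.23 in wild-type mice (7 genes). The order of the genotypes thus turned with the genes included. The wild-type set also held Junb, at -0.18, so these medians are over unlike sets and their gap is not one between genotypes alone.

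**Figure D1:**
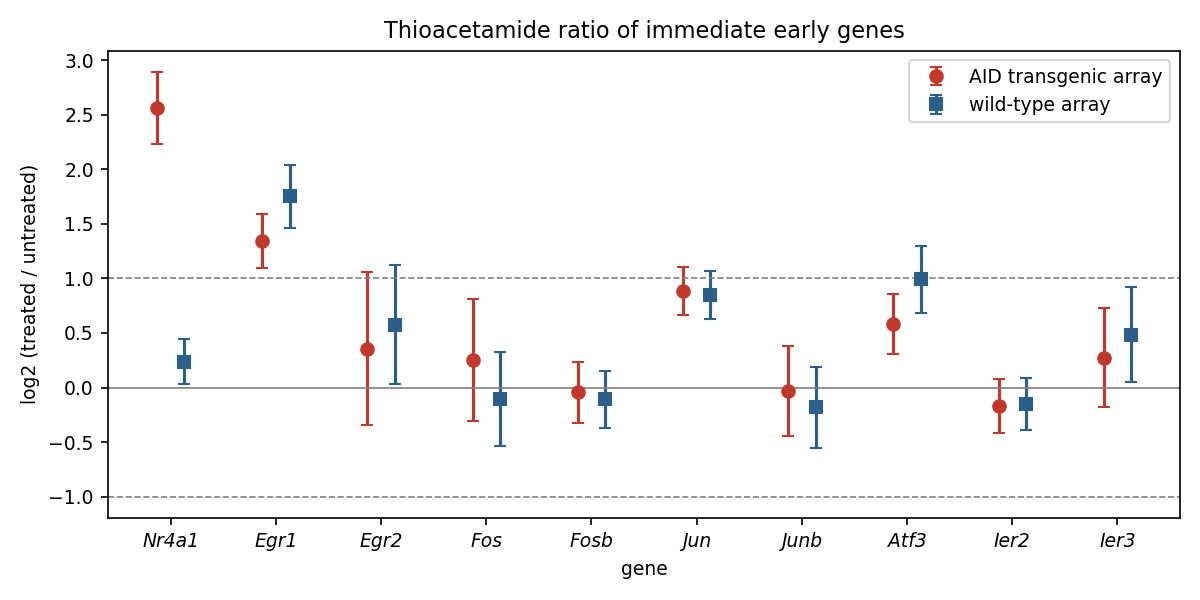
Log2 ratio of treated over untreated liver (vertical axis) for each of the 10 genes, as red circles for the AID transgenic array and blue squares for the wild-type array; bars are the technical error that the scanner software gave, and dashed lines mark 2-fold. Nr4a1 stands at 2.56 on the AID transgenic array and 0.23 on the wild-type array, while for the other 9 genes the bars of the arrays overlap.

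Nr4a1, also called Nur77, encodes an orphan nuclear receptor that binds DNA without a known natural ligand and acts on metabolic and inflammatory genes. Its probe lies at chr15:101105071-101105130 on the plus strand of mm9, the build named in the scanner files. Normalized intensity was 3147 in treated AID transgenic liver, 532 in untreated AID transgenic liver, 468 in treated wild-type liver and 397 in untreated wild-type liver. All 4 channels were well above background, and 1 of them, the treated AID transgenic liver, stood far above the others, which lay within a narrow range. The log2 ratio of treated over untreated was 2.56 ± 0.33 in AID transgenic mice, which is 5.91-fold, and 0.23 ± 0.21 in wild-type mice, which is 1.18-fold. Throughout, ± gives the error that the scanner software attached to its own log ratio (for genotype comparisons, to its processed signals), in log2 units. It is technical, was not computed for the ratio printed before it, and says nothing of variation between mice. Among all measured genes ranked from the highest ratio, Nr4a1 was in place 9 of 16691 on the AID transgenic array and in place 4000 of 16662 on the wild-type array. The difference between the log2 ratios, AID transgenic minus wild-type, was 2.33 ± 0.39, place 21 of 17104. Of its relatives, Nr4a2 had ratios of -0.32 ± 0.37 and -0.71 ± 0.39, and Nr4a3 was not well above background in any channel.

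Egr1 encodes a zinc finger factor that is induced by growth factors and injury. Normalized intensity was 900 in treated AID transgenic liver, 355 in untreated AID transgenic liver, 676 in treated wild-type liver and 201 in untreated wild-type liver. All 4 were well above background, both treated livers stood above both untreated livers, and the untreated wild-type liver was the lowest. The log2 ratio was 1.34 ± 0.24 in AID transgenic mice (2.54-fold) and 1.75 ± 0.29 in wild-type mice (3.37-fold), in place 97 and place 75 from the top. The difference of -0.41 ± 0.38 was close to its technical error. Egr2, a relative best known for its role in Schwann cells and T cells, has its probe at chr10:67004798-67004857 on the plus strand of mm9. Its log2 level was 6.57 in treated and 6.21 in untreated AID transgenic liver, and 6.73 in treated and 6.16 in untreated wild-type liver. Neither untreated level was well above background. By the processing used here, treated liver was thus at least 1.19-fold higher in AID transgenic and at least 1.38-fold higher in wild-type mice. These bounds leave out the technical error. The log2 ratio was 0.36 ± 0.70 in AID transgenic mice, within its error, and 0.58 ± 0.54 in wild-type mice, close to it. Median centring, another way of processing, lowered these ratios to 0.18 and 0.44, below the bounds. Both treated levels lay above both untreated levels, as for Egr1, but at a signal near the background. Egr3 and Egr4 were not well above background in any channel.

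**Figure D2:**
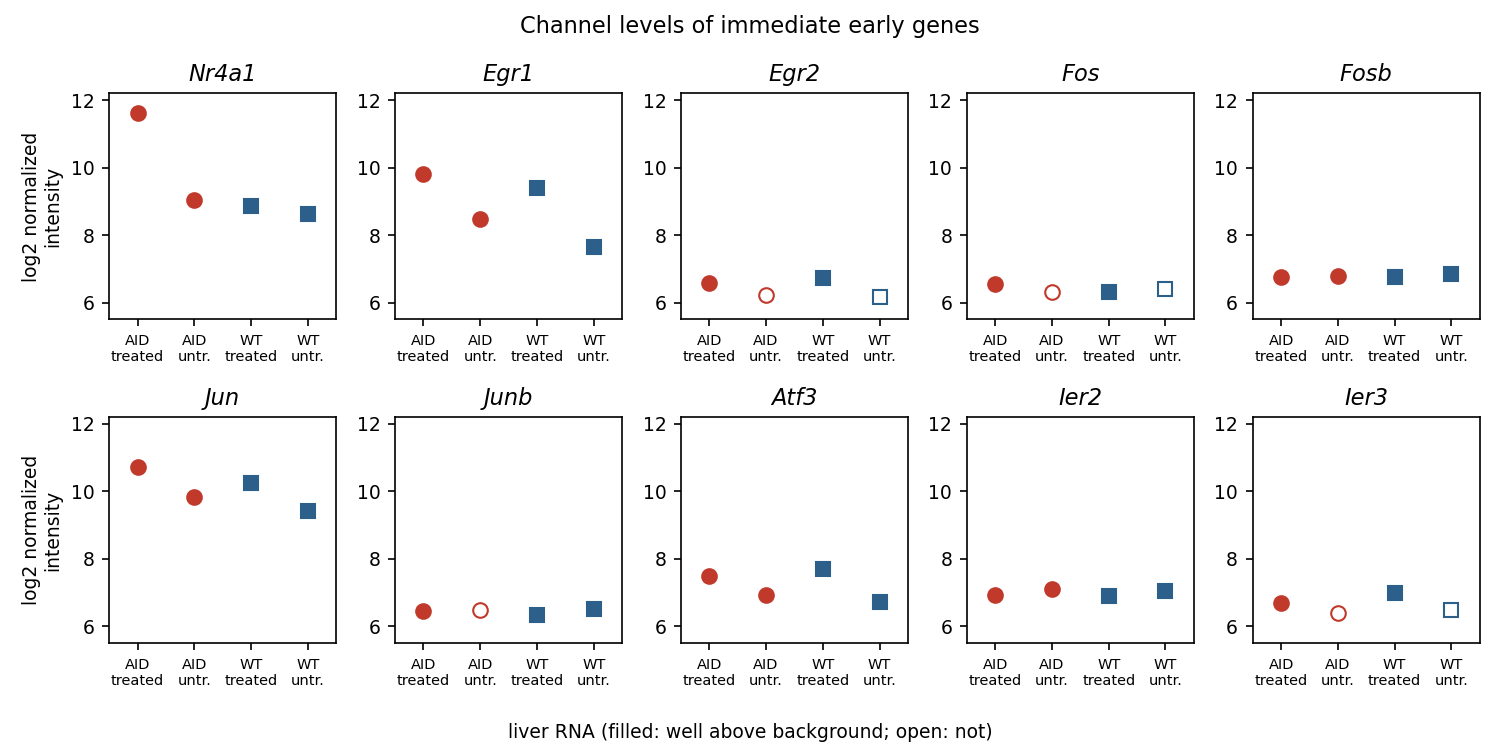
Log2 normalized intensity (vertical axis) of the 10 genes in the 4 channels, 1 panel per gene; red circles are AID transgenic and blue squares wild-type livers, filled where the probe was well above background and open where it was not. In the Nr4a1 panel the treated AID transgenic liver stands alone at 11.62 against 8.63 to 9.06 elsewhere, while in the Egr1 and Jun panels both treated livers lie above both untreated livers.

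The AP-1 factors are dimers of Jun proteins with each other or with Fos proteins, and Atf3 is a stress-induced partner that often represses. Jun (probe at chr4:94716928-94716987, minus strand of mm9) had normalized intensities of 1693 in treated AID transgenic liver, 915 in untreated AID transgenic liver, 1227 in treated wild-type liver and 682 in untreated wild-type liver. Both treated livers lay above both untreated livers, and within either treatment the AID transgenic liver was above the wild-type liver. Both treatments of a genotype share a spot, so genotype and a difference between spots cannot be told apart there. The log2 ratio was 0.89 ± 0.22 in AID transgenic and 0.85 ± 0.22 in wild-type mice, 1.85-fold and 1.80-fold, and the difference of 0.04 ± 0.31 was far inside its error. Junb (chr8:87501881-87501940, minus strand), a Jun relative that can oppose it, had log2 levels of 6.46 in treated and 6.49 in untreated AID transgenic liver, the second not well above background, and 6.32 in treated and 6.50 in untreated wild-type liver. Its ratios of -0.03 ± 0.41 and -0.18 ± 0.37 lay within the error.

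Atf3 (chr1:192994547-192994606, minus strand) had normalized intensities of 181 in treated AID transgenic liver, 121 in untreated AID transgenic liver, 209 in treated wild-type liver and 105 in untreated wild-type liver. Both treated livers were above both untreated livers, and all were well above background. The log2 ratio was 0.58 ± 0.28 in AID transgenic mice and 0.99 ± 0.31 in wild-type mice, 1.99-fold, which falls just short of the 2-fold count. Their difference was -0.41 ± 0.41, as large as its error.

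Fos, a partner of Jun in AP-1, is the only one of the 10 genes with repeated spots, 10 on each array, of which 3 on the wild-type array were left out as outliers marked by the software. Its probe lies at chr12:86817900-86817959 on the plus strand of mm9. The mean log2 level was 6.56 in treated and 6.31 in untreated AID transgenic liver, and 6.31 in treated and 6.41 in untreated wild-type liver. All 10 spots were well above background in treated AID transgenic liver and 0 of 10 in the untreated, against 7 of 7 in treated wild-type liver and 1 of 7 in the untreated. The call comes at lower levels in Cy5 than in Cy3, so these counts do not rank the channels. In wild-type liver the untreated mean level was the higher one. These levels lie close to the background, where the offset of 50 added in the background correction pulls ratios towards 0. Over spots, the log2 ratio ran from 0.06 to 0.41 with a median of 0.24 and an SD of 0.13 on the AID transgenic array, above 0 in 10 of 10. On the wild-type array it ran from -0.28 to 0.04 with a median of -0.05 and an SD of 0.13, below 0 in 6 of 7. The means were 0.25 and -0.10, with scanner errors of 0.56 and 0.43, so both lay within the error. In fold terms the treated AID transgenic liver was 1.19-fold higher, with a bound of at least 1.18-fold by the processing used here. That bound leaves out the technical error, and median centring, another way of processing, gave a log2 ratio of 0.09, below it. Between the 7 spots kept on both arrays the ratio differed by 0.16 to 0.45, AID transgenic minus wild-type, with a mean of 0.33 and an SD of 0.12. Spots of 1 probe share their RNA and hybridisation, so this spread is technical. For scale, 399 probes with 10 spots each had a median SD of 0.07 on either array, and the 100 of them nearest to Fos in intensity had 0.107 on the AID transgenic array and 0.114 on the wild-type array. Fosb (chr7:19888168-19888227, minus strand) had log2 levels of 6.75 in treated and 6.79 in untreated AID transgenic liver, and 6.75 in treated and 6.86 in untreated wild-type liver. Its ratios were -0.05 ± 0.28 and -0.11 ± 0.26, within the error on both arrays.

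**Figure D3:**
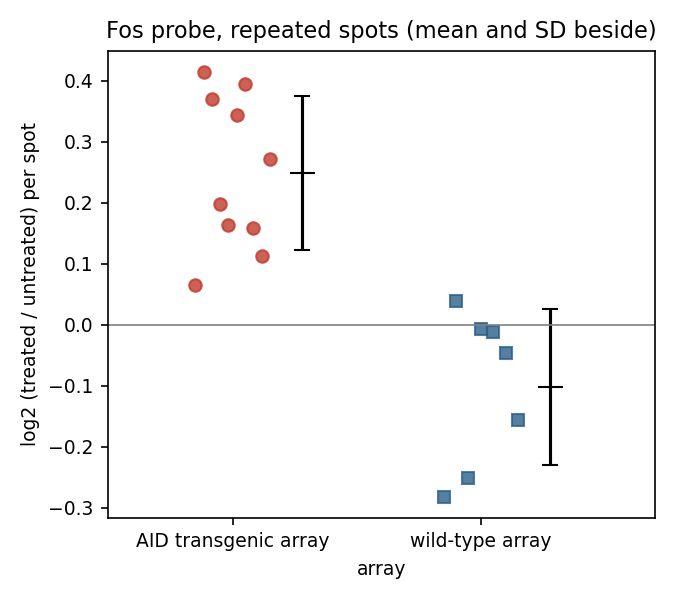
Log2 ratio of treated over untreated liver (vertical axis) at each spot of the Fos probe, 10 spots on the AID transgenic array (red circles) and the 7 kept on the wild-type array (blue squares), with the mean and SD of the spots beside them. The AID transgenic spots all lie above 0, from 0.06 to 0.41, and 6 of 7 wild-type spots lie below it.

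Ier2 and Ier3 are short proteins rather than typical DNA-binding factors: Ier2 is a nuclear protein that is thought to regulate transcription, and Ier3, a target of NF-kappa-B and p53, acts on cell survival. Ier2 (chr8:87186214-87186273, minus strand) had log2 levels of 6.93 in treated and 7.10 in untreated AID transgenic liver, and 6.90 in treated and 7.05 in untreated wild-type liver. Both ratios, -0.17 ± 0.25 and -0.15 ± 0.24, lay within the error. Ier3 (chr17:35959528-35959587, plus strand) had 6.67 in treated and 6.40 in untreated AID transgenic liver, and 6.97 in treated and 6.49 in untreated wild-type liver. Neither untreated level was well above background. By the processing used here, treated liver was 1.21-fold higher in AID transgenic and 1.40-fold higher in wild-type mice. The bounds equal these folds and leave out the technical error. The log2 ratio was 0.27 ± 0.45 in AID transgenic mice, within its error, and 0.48 ± 0.43 in wild-type mice, close to it. Median centring, another way of processing, gave 0.19 in AID transgenic mice, below the bound there. By level, both treated livers stood above both untreated livers, with treated wild-type liver the highest.

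The genotypes were then set against each other within each treatment, across the arrays. Treated and untreated RNA of a genotype share the same spots, so a difference between spots or arrays enters both treatments. It cannot be told apart from genotype in these comparisons. In the difference of treatment ratios 1 of the 10 genes, Nr4a1, was counted as higher and 0 as lower, where 0.93% of 17104 genes were higher, 1.05% lower and 1.98% either. Among treated livers, AID transgenic over wild-type, again 1 gene was higher and 0 lower, where 0.738% of 17076 genes were higher, 0.761% lower and 1.5% either. That gene was Nr4a1, at 2.75 ± 0.20 or 6.73-fold, place 12 from the top. The next were Jun at 0.46 ± 0.20, Egr1 at 0.41 ± 0.20 and Fos at 0.25 ± 0.27, and the lowest was Ier3 at -0.30 ± 0.22. Among untreated livers, 0 of the 7 genes measured there were counted, where 0.308% of 14296 genes were higher, 0.294% lower and 0.602% either. Egr1 was the highest of them at 0.82 ± 0.21, 1.77-fold and place 66, followed by Jun and Nr4a1, both at 0.42, with errors of 0.20 and 0.21. Egr1 was thus above its wild-type level in both treatments, by more in the untreated livers, but the treatments share a spot and are not separate evidence. Median values over the genes were 0.01 for the difference, 0.08 in treated and 0.20 in untreated livers.

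**Figure D4:**
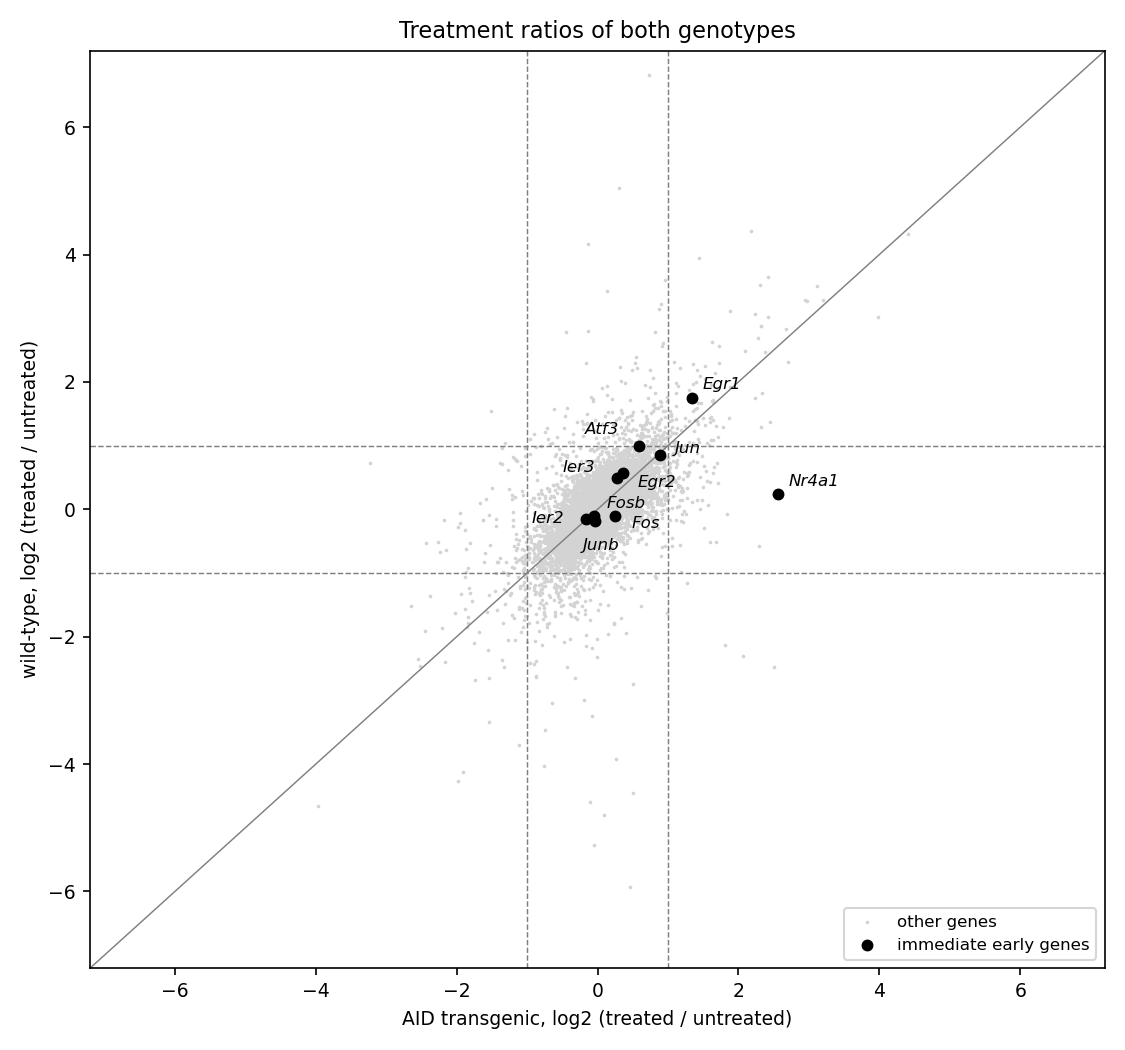
Log2 ratio of treated over untreated liver in AID transgenic mice (horizontal axis) against that in wild-type mice (vertical axis) for 16249 genes measured on both arrays in grey and the 10 immediate early genes in black; dashed lines mark 2-fold and the diagonal marks equal ratios. Nr4a1 lies far to the right of the diagonal at 2.56 against 0.23, while the other 9 genes lie near it.

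The upstream arm of the pathway was described from lists of other genes. Of 16 measured ligands and receptors, 1 was counted higher and 1 lower in treated AID transgenic liver, and of 15 in treated wild-type liver 0 higher and 1 lower. Il1b, the inflammatory cytokine interleukin-1 beta, had log2 ratios of 2.30 in AID transgenic and -0.57 in wild-type mice, a difference of 2.86. Between treated livers it was 2.42 higher in AID transgenic mice, and like Nr4a1 it was highest in that channel. The interleukin-6 receptor gene Il6ra had -1.04 ± 0.22 and -0.84, and the epidermal growth factor receptor gene Egfr had -0.97 ± 0.22 and -1.78 ± 0.27. Of 26 kinases and SRF partners that carry the signal, 0 reached 2-fold in either direction in any of the 5 comparisons, with a median of 0.03 on both arrays. Map3k1, a kinase gene of the stress-activated branch, had 0.59 in AID transgenic and 0.69 in wild-type mice. The mRNA level of these kinases is not their activity, which arrays do not measure.

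Relatives of the 10 genes were read against the 2.16% and 3.5% of all genes past 2-fold on the AID transgenic and the wild-type array. Of 11 measured AP-1 and Maf relatives, 0 reached 2-fold on either array, and their medians were 0.27 in AID transgenic and 0.07 in wild-type mice. Batf3, a dimer partner of Jun in immune cells, had 0.97 ± 0.27 and 0.26 ± 0.24. Maff, a small Maf factor, had -0.94 ± 0.23 and 0.14 ± 0.21, and a difference of -1.08. Fosl1 was not well above background in any channel. Among 15 measured members of a list of other inducible transcription factors, 0 were higher and 2 lower in treated AID transgenic liver, and 1 was higher and 1 lower in treated wild-type liver. Those lower in AID transgenic mice were the C/EBP genes Cebpd at -1.19 ± 0.23 and Cebpb at -1.13 ± 0.23, which had -0.92 and -0.80 in wild-type mice. In wild-type mice, Klf6, a zinc finger factor, had 1.33 ± 0.24 (0.69 in AID transgenic mice) and Csrnp1 had -1.12 ± 0.23 (-0.01 in AID transgenic mice), a difference of 1.11. Between untreated livers, Klf10 was the 1 gene of that list counted, at -1.08. Myc, which drives growth genes, had 0.59 and 0.66.

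Feedback inhibitors end the immediate early response, and 1 of 20 was counted on each array, the same gene. Dusp6, the phosphatase that inactivates the kinase ERK, had 1.64 ± 0.26 in AID transgenic and 1.41 ± 0.24 in wild-type mice. It shares with Egr1 a higher level in the treated liver of both genotypes, while Dusp1, another MAP kinase phosphatase, had 0.20 and -0.71, Dusp2 0.96 ± 0.25 and 0.14 ± 0.21, and the kinase gene Sik1 0.85 and 0.12. The medians of the list were 0.18 and 0.13. Of 19 measured immediate early genes that encode effectors, 3 were higher and 1 lower in treated AID transgenic liver, and 3 higher and 2 lower in treated wild-type liver. Plk2, a polo-like kinase gene, was counted on both arrays at 1.45 ± 0.30 and 1.06 ± 0.26. The growth arrest gene Gadd45a had 1.29 ± 0.27 and 0.53, and Rgs1, a regulator of G protein signalling in immune cells, 1.05 ± 0.28 and -0.45, a difference of 1.50. The matrix protein gene Ccn2 had -1.15 ± 0.24 and -0.47. Counted in wild-type mice were Gdf15, a stress cytokine gene, at 1.41 ± 0.24 (0.91 in AID transgenic mice), Gadd45b at 1.09 ± 0.24 (0.41), Gadd45g at -1.12 ± 0.23 (-0.71) and Plk3 at -1.09 ± 0.23 (-0.13). The median of the effector list was 0.07 and 0.06.

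Genes that mark handling and time of day were read on the same arrays, since immediate early genes also respond to both. Of 6 measured heat shock genes 0 reached 2-fold, with medians of -0.32 in AID transgenic and 0.19 in wild-type mice, and the ratio was lower in AID transgenic mice in 6 of 6. The chaperone gene Hspa8 had -0.87 and 0.07. Of 11 clock genes 1 was counted on each array, Arntl (Bmal1), the positive arm of the clock, with 1.62 ± 0.28 and 2.62 ± 0.40. Per1, a clock gene that is also an immediate early gene, had -0.67 and -0.41. The part of handling and of time of day in the values of the 10 genes was not tested.

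Of the markers of other liver cells, the summed macrophage markers were highest where Nr4a1 was. So was the neutrophil sum, nearly all of it from 1 gene, Csf3r, and the other sums were not. In bulk tissue, fewer cells of a type and less RNA per cell cannot be told apart. The summed intensity of 7 macrophage and Kupffer cell markers, 7 of 7 well above background in each channel, was 32693 in treated AID transgenic liver, 16187 in untreated AID transgenic liver, 12331 in treated wild-type liver and 11019 in untreated wild-type liver. As for Nr4a1, the treated AID transgenic liver was the highest. The members differed among themselves: the ratio was higher in AID transgenic mice in 5 of 7. Cd5l, made by Kupffer cells, had ratios of 1.48 in AID transgenic and 0.15 in wild-type mice, whereas Marco had 0.65 and 0.76 and the lysozyme gene Lyz2 0.15 and 0.20. Marco, a macrophage scavenger receptor gene, was 2.54 higher on the log2 scale in untreated AID transgenic than in untreated wild-type liver. Of 6 neutrophil markers, 3 were well above background in each channel and Cxcr2, Mpo and Ngp in none, and their sum was 33652 in treated AID transgenic, 22503 in untreated AID transgenic, 28553 in treated wild-type and 23695 in untreated wild-type liver. Nearly all of that sum was Csf3r, at a log2 level of 14.99 in treated AID transgenic liver against 9.45 for S100a9 and 7.72 for S100a8. The sum thus says little about neutrophil markers as a set. Csf3r had ratios of 0.57 in AID transgenic and 0.29 in wild-type mice. The other two ran the opposite way in wild-type mice, S100a9 with 1.60 and -0.51 and S100a8 with 0.79 and -0.30. The sum of 6 stellate cell and fibroblast markers ran the other way, with 11307 in treated and 20481 in untreated AID transgenic liver, and 17410 in treated and 14587 in untreated wild-type liver. Endothelial markers were nearly level, between 17255 and 20145 in the 4 channels. Lymphocyte markers summed to 2423 in treated and 2644 in untreated AID transgenic liver, and to 2054 in treated and 2363 in untreated wild-type liver. Well above background were 7 of 7 in treated and 2 of 7 in untreated AID transgenic liver. In treated and untreated wild-type liver it was 6 and 3 of 7. The call comes at lower levels in Cy5, so these counts do not by themselves show more lymphocyte RNA in treated liver. Cholangiocyte markers summed to 623 in treated and 760 in untreated AID transgenic liver, and to 900 in treated and 664 in untreated wild-type liver. Marker by marker, the ratio was higher in AID transgenic mice in 3 of 3 neutrophil, 6 of 6 lymphocyte and 6 of 6 endothelial markers. It was so in 1 of 3 cholangiocyte and 0 of 6 stellate cell and fibroblast markers. A higher ratio in AID transgenic mice was thus not particular to macrophage markers. The part of these cell types in the Nr4a1 difference was not tested.

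The ratios of the dim genes depended on how background was handled, while the size of the Nr4a1 difference did not. With the scanner's own processed signals, which add no offset, the difference between genotypes in Nr4a1 was 2.55, with an offset of 0 it was 2.47, and with median centring it was 2.41. Egr1 was higher by more than 2-fold in treated liver of both genotypes in each of these. Egr2, at 0.36 and 0.58 in AID transgenic and wild-type mice, had 2.26 and 3.14 with processed signals, and Ier3, at 0.27 and 0.48, had 1.47 and 2.80. Fos, at 0.25 and -0.10, had 1.63 and -0.42, so its sign on each array was kept. With median centring it had 0.09 and -0.30, and the median of all genes was then 0.34 and 0.35, so relative to it Fos was below on both arrays, at -0.25 and -0.65.

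**Figure D5:**
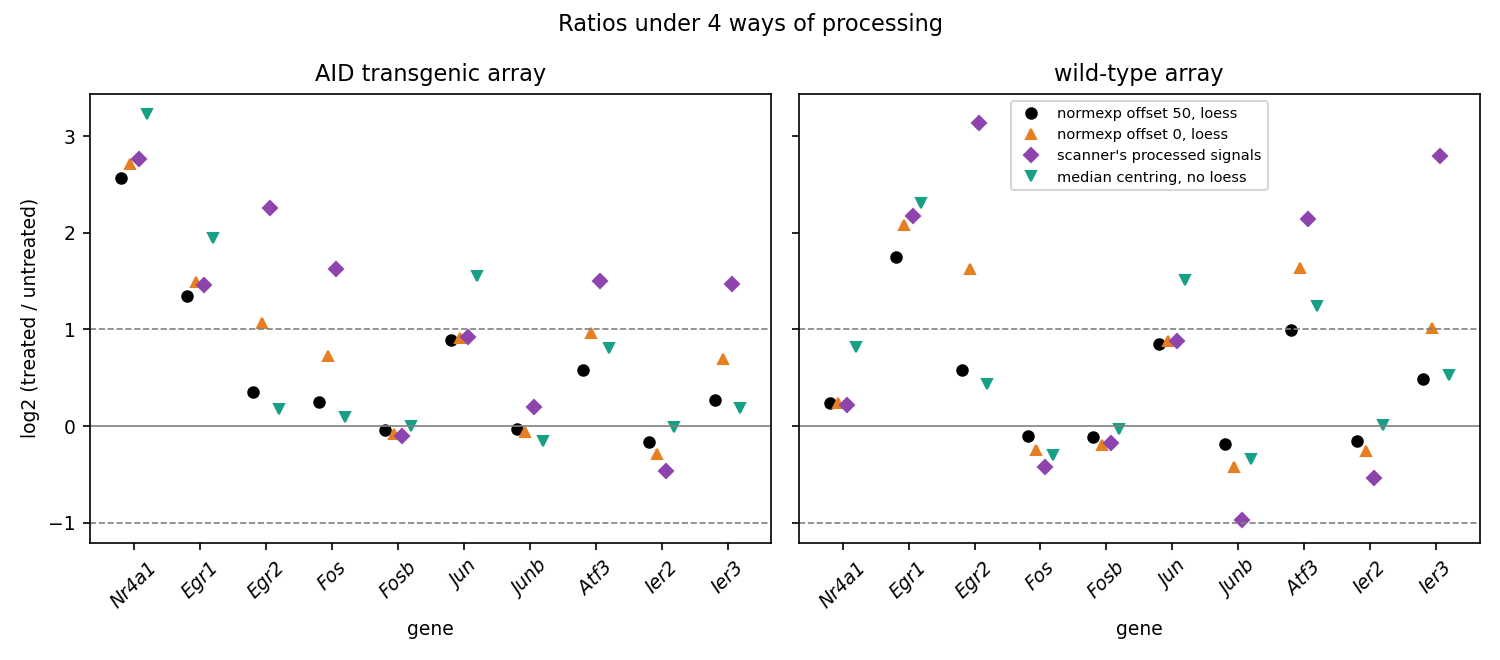
Log2 ratio of treated over untreated liver (vertical axis) of the 10 genes under 4 ways of processing, on the AID transgenic array (left) and the wild-type array (right); dashed lines mark 2-fold. Nr4a1 on the AID transgenic array (2.56 to 3.23) and Egr1 on both arrays stay past 2-fold throughout, Nr4a1 on the wild-type array stands at 0.22 to 0.23 and at 0.82 with median centring, and Egr2, Ier3, Atf3 and, on the AID transgenic array, Fos spread apart.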

How the data were processed

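Liver RNA was hybridised to 2 Agilent 2-colour arrays on 1 slide and scan, 1 per genotype, with treated RNA in Cy5 and untreated RNA in Cy3, per the labels. The deposited scanner files give spot mean and background signals as intensity values, and processed signals that the scanner software had background-subtracted and dye-normalized, per the file headers. The log ratio that the authors deposited is in log10, treated (red) over untreated (green), and was exactly 0 on 8692 spots of the AID transgenic and 7232 of the wild-type array, all with a surrogate green signal. The deposited error of the log ratio is a score of the software's error model, printed here in log2 units. Each spot's p-value, deposited by the authors from that model, was not used. The authors' value table equalled the scanner ratios on all 44397 features. The software, Feature Extraction, has version 10.7.3.1 in the headers, whereas the submitters' processing notes name 10.5.1.1.

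Mean signals were corrected with normexp (offset 50) and normalized by loess within arrays in limma 3.58.1 (R 4.3.3), with weight 0 for control and outlier spots, which were then left out (207 and 197 outliers). Levels and genotype comparisons used Aquantile normalization. Spots of a probe, then probes of a gene, were averaged. A probe was well above background where most of its spots were. Folds written as at least N-fold compare the brighter level with the dim level or, where higher, the smallest level in that channel that was well above background. They can thus equal the measured fold, and they leave out the technical error and the choice of processing. Probes were named through RefSeq of GRCm38.p6: 26055 by accession, 3195 by symbol, 930 by synonym, 9249 not. The normalization was tested on simulated data with known changes made only in brighter probes, so the test does not cover probes near the background. Members, lists and alternatives were chosen with earlier results of these data known. From each list, genes past 2-fold (at most 4 per comparison), otherwise those with the largest values, were named. Some genes are not reported here. Motifs were searched on both strands. No test across mice was possible, the number of arrays limits the precision, and 6 alternatives were tried.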

Additional observations from a re-analysis of the deposited data

Results flagged for a closer look

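Fos had ratios of opposite sign on the arrays, with a log2 ratio of treated over untreated of 0.25 in AID transgenic liver and -0.10 in wild-type liver. Both are means over spots of 1 probe on 1 array, neither untreated level was well above background, and the difference was not tested. Relative to the median of all genes under median centring, Fos was below on both arrays, at -0.25 and -0.65.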

How the results depend on the processing

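Nr4a1 was the only one of the 10 genes past 2-fold between treated livers under all 6 alternatives (an offset of 0, processed signals, median centring without loess, every channel well above background, the brightest probe, outlier spots kept). Treated over untreated, the count of genes past 2-fold was 2 in AID transgenic liver, and 3 with an offset of 0, 6 with processed signals and 3 with median centring. Of all 16691 measured genes, 620 were then higher and 269 lower with an offset of 0. With processed signals it was 1518 and 474, and with median centring 1358 and 53. In wild-type liver the count of the 10 genes was 1, and 4 with an offset of 0, 4 with processed signals and 3 with median centring. Of all 16662 measured genes there, 782 were higher and 406 lower with an offset of 0. With processed signals it was 1575 and 605, and with median centring 1729 and 102. The count for the difference was 1, and 4 with processed signals, where 802 of all 17104 genes were higher and 943 lower. Among untreated livers it was 0, and 1 with an offset of 0 (Egr1 at 1.07) and 1 with processed signals (1.20). Of all 14296 genes measured there, 106 were higher and 99 lower with an offset of 0, and 215 and 205 with processed signals. Egr2, Ier3, Atf3 and Fos made up most of the added calls. The untreated levels of Egr2, Ier3 and Fos were not well above background, where the offset pulls ratios towards 0. Atf3 was dim but well above background in every channel. Signs changed for Junb in AID transgenic liver (0.20 with processed signals), for Ier2 in wild-type liver (0.01 with median centring), and for small values of Ier2 and Fosb between genotypes. Median centring moved the median of all genes to 0.34 on the AID transgenic and 0.35 on the wild-type array; relative to it, Nr4a1 had 2.89 and 0.47, Egr1 1.60 and 1.96, Jun 1.21 and 1.16, and Atf3 0.47 and 0.90, while in AID transgenic liver Fos (-0.25), Egr2 (-0.17) and Ier3 (-0.15) turned to below all genes. Of all genes past 2-fold, those higher made up 56.2% in AID transgenic liver, and 69.7%, 76.2% and 96.2% with an offset of 0, processed signals and median centring; in wild-type liver it was 53.1%, and 65.8%, 72.2% and 94.4%. The number of all genes past 2-fold thus rose with these settings too, from 203 higher and 158 lower in AID transgenic liver and from 310 and 274 in wild-type liver. No array could be left out, with 1 per genotype. No paired analysis was possible because each genotype has 1 array, so no replicate number is shared by more than 1 pair.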
